A study of Mus musculus with 24 samples.

Results

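The T cell receptor is built from gene segments of 4 loci, and the RNA of these segments was followed here on the surface of mouse blood cells and in peripheral blood mononuclear cells (PBMCs). Members were the genes with at least 1 row typed as a T cell receptor V, D, J or C segment in the tables of surface RNA. There were 226 such genes among the 56920 genes of those tables, of which 144 were variable (V), 70 joining (J), 4 diversity (D) and 8 constant (C) segments. The Tra locus held 162 of them, the Trb locus 39, the Trg locus 15 and the Trd locus 10. All 5 tables listed 211 of the 226. The other 15, the 4 D segments among them, were listed in the monocyte table alone and stood at 0 there.

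A T cell joins 1 V to 1 J segment, with a D segment between them in the beta and delta chains, and splices the joined exon to a C segment. Alpha and beta chains form the receptor of most T cells, and gamma and delta chains that of a smaller class. Unjoined segments can also be transcribed, since promoters upstream of J and C segments open the locus before and without recombination, and NK cells are known to carry such transcripts without a T cell receptor. RNA of a segment is therefore not by itself RNA of a receptor.

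The surface RNA libraries came from wild-type C57BL/6 mice, with 3 libraries for each cell type and no further treatment besides the amplification itself. Spleen gave the B cells, T cells and NK cells, and femoral bone marrow gave the HSPCs (hematopoietic stem and progenitor cells) and the monocytes, each by an isolation kit. T cells were taken with a CD8 kit and HSPCs by depletion of lineage-positive cells. Cells were fixed and bound to beads, an oligo with a T7 promoter and a random end was annealed to RNA on the outside of the membrane, and that RNA was amplified in place, so the values describe RNA that this procedure reaches. The 9 PBMC libraries were total RNA from blood of wild-type mice, with 3 libraries for each of the treatment labels ct, WT and Y, whose meaning the labels do not give. Neither the ages nor the number of animals behind the libraries are stated, and monocytes alone were sequenced on a DNB T7 instrument, so that cell type and instrument cannot be told apart for them.

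Surface values are TPM (transcript abundance scaled to a fixed total per library), which the authors estimated for each transcript and which were summed here over the transcripts of a gene. TPM keeps no depth, so the number of reads behind a value is unknown. The T cell libraries carried the markers of their label. Cd8b1, the beta chain of the CD8 coreceptor, was at 8.68, 24.9 and 17.1 TPM on T cells and at most 0.833 TPM in each of the 12 other libraries, and Cd4 was at most 0.027 TPM on T cells. The 9 NK cell markers summed to 81.1 to 240 TPM on NK cells and to 5.83 to 14.6 TPM on T cells, and the 9 B cell markers to 264 to 405 TPM on B cells and at most 22.2 TPM in any other library. The 8 HSPC markers summed to 11.6 to 18.5 TPM on HSPCs and to 84.9 to 96.9 TPM on monocytes, so the HSPC libraries were not the highest for their own list. T cell replicate 1 had the lowest summed level of the segments among T cells and also of the 16 T cell markers, whose sums were 51.7, 157 and 106 TPM.

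J segments carry most of the values below, and 10 of them are shown because their values are described in the results. The sequences are GENCODE M21 transcripts on the plus strand of GRCm38, matched by identifier without its version, since the surface tables follow another release. Capitals mark the stretch TTNGGNNNNGGNAC, a pattern around the Phe-Gly core known for J segments, whose open bases also admit other residues.
Traj21: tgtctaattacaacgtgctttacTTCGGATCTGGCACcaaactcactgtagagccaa
Traj24: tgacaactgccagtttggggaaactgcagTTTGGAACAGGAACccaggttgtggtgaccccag
Traj22: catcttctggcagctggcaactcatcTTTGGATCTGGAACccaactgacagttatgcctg
Trbj1-1: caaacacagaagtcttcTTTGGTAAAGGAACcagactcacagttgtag
Trbj1-2: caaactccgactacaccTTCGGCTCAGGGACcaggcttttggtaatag
Trbj1-5: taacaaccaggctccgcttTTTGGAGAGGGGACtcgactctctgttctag
Trbj2-5: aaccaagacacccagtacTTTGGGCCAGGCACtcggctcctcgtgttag
Trbj2-7: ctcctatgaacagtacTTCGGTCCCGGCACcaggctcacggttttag
Trdj1: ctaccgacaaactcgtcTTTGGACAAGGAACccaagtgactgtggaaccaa
Trgj1: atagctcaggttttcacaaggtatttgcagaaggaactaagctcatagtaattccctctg
The stretch was found in 50 of the 70 J segments (71.4%) on the strand given, in none on the other strand, and in none of the 144 V segments. Trgj1 is printed without capitals because these letters were not found in it. Traj21 lies at chr14:54198790-54198846, Traj24 at chr14:54195638-54195700 and Traj22 at chr14:54197248-54197307. The beta segments lie at chr6:41533864-41533911 for Trbj1-1, chr6:41534001-41534048 for Trbj1-2, chr6:41535084-41535133 for Trbj1-5, chr6:41543453-41543501 for Trbj2-5 and chr6:41543810-41543856 for Trbj2-7. Trdj1 lies at chr14:54123138-54123188 and Trgj1 at chr13:19210343-19210402.

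J segments measure 46 to 66 nt and D segments 11 to 16 nt, against 328 to 595 nt for V and 648 to 3865 nt for C segments. Because TPM divides by length, a read on a J segment is worth far more TPM than a read on a C segment. The lowest J value above 0 lay between 0.6 and 2.40 TPM in the libraries of the other 4 types that had one, and the sole J value of the monocyte libraries was 40.2 TPM. Levels of J, V and C segments are therefore given side by side below without ranking one kind over another.

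Segment RNA was most abundant on T cells. The members summed to 392, 1206 and 751 TPM on T cells, with a mean of 783 ± 408 (SD, n = 3). On NK cells they summed to 60.1, 221 and 136 TPM. Every T cell library lay above every NK cell library, and both above the B cell, HSPC and monocyte libraries. The B cell sums were 4.68, 3.31 and 0.252 TPM and the HSPC sums 1.99, 3.53 and 0.634 TPM, and these types overlapped. Monocytes gave 6.60, 43.7 and 9.75 TPM, and 40.2 TPM of the second value came from Trbj1-5 alone. For comparison, the 268 immunoglobulin segments summed to 2601 to 3985 TPM on B cells, 1778 to 4493 TPM on NK cells and 166 to 1090 TPM on T cells.

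Among the 226 members, 207 were above 0 in at least 1 T cell library and 151 in all 3. The corresponding counts were 49 and 12 for NK cells, 36 and 3 for B cells, 33 and 7 for HSPCs and 13 and 4 for monocytes. On T cells 105 of the 110 Trav, 48 of the 51 Traj, all 22 Trbv and all 13 Trbj segments had a value above 0 in some library. On NK cells 11 of the 13 Trbj segments did, against 12 of 110 Trav and 3 of 51 Traj segments.

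**Figure D1:**
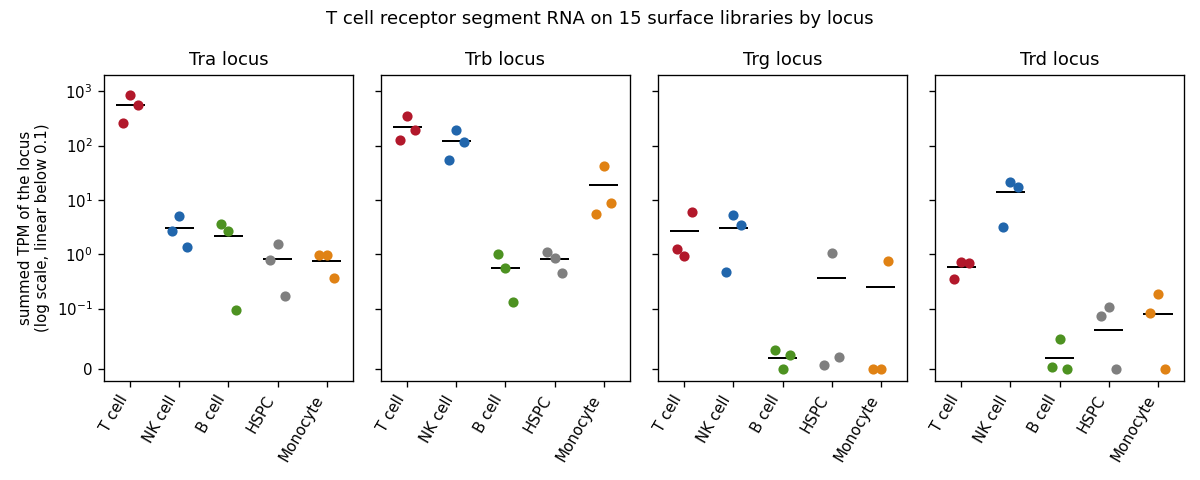
Summed TPM of the segments of each locus (vertical axis, logarithmic above 0.1 and linear below) in each of the 15 surface libraries, with 1 point per library and a bar at the mean of 3. T cells lead for Tra at 262 to 862 TPM, T cells and NK cells are both high for Trb, and NK cells lead for Trd at 3.21 to 21.2 TPM.

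The shares of the loci separated T cells from NK cells. Tra segments gave 66.8 to 72.9% of the member TPM on T cells and 1.0 to 4.5% on NK cells. Trb segments gave 26.2 to 32.8% on T cells and 83.6 to 89.4% on NK cells. Trd segments reached 5.3 to 12.9% on NK cells against 0.1% in each T cell library. The shares did not separate all types. Tra gave 77.5%, 81.6% and 38.9% on B cells, and Trb gave 84.0%, 97.4% and 88.6% on monocytes. J segments gave 80.5 to 82.5% on T cells and 83.8 to 89.8% on NK cells, so every NK cell library was higher.

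Among the C segments, Trac, the constant gene of the alpha chain (chr14:54220521-54224206), was at 12.2, 35.7 and 23.5 TPM on T cells. It was at 0.107, 0.436 and 0.227 TPM on NK cells and at most 0.961 TPM on B cells, HSPCs and monocytes. Its difference between T cells and the mean of the other 4 types was 4.18 ± 0.22 (SE) on the log2(TPM + 1) scale, with an adjusted p of 1.49e-08 in limma and of 2.47e-07 without the filter on low values described below.

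Trbc1 and Trbc2 are the constant genes of the beta chain, and each lies behind its own cluster of J segments (chr6:41538218-41539881 and chr6:41546730-41548352). Trbc2 was at 6.27, 23.7 and 16.5 TPM on T cells and at 0.548, 2.48 and 2.03 TPM on NK cells, so these groups did not overlap. Trbc1 was at 4.21, 16.3 and 11.9 TPM on T cells and at 3.60, 11.5 and 11.1 TPM on NK cells, and here they overlapped. On B cells and HSPCs neither gene exceeded 0.341 TPM. Monocytes had Trbc1 at 1.26, 0.507 and 0.468 TPM and Trbc2 at 1.37, 0 and 0.501 TPM. Against the other 4 types, T cells were higher by 3.29 ± 0.33 for Trbc2 and by 2.37 ± 0.33 for Trbc1 on the log2(TPM + 1) scale (SE), with adjusted p-values of 1.20e-06 and 1.64e-05 in limma.

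The constant genes of the gamma and delta chains were low on T cells. Trdc was at 0.046, 0.102 and 0.048 TPM on T cells and at 0.228, 1.03 and 1.04 TPM on NK cells, so every NK cell library was higher. Trgc1 was at 0.054, 0.191 and 0.222 TPM on T cells and at 0.318, 0.265 and 0.552 TPM on NK cells. Trgc4 was at 0.030, 0.118 and 0.052 TPM on T cells and at 0.037, 0.795 and 0.551 TPM on NK cells, which overlapped. Trgc2 reached 0.155 TPM on T cells and 0.140 TPM on NK cells, and Trgc3 was listed at 0 in the 1 table that lists it. None of these passed the filter on low values described below.

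The comparison of T cells with the mean of the other 4 types asked which segments mark T cells. Genes above 1 TPM in at least 3 of the 15 libraries were tested, 13119 in all and 64 members among them. Of these members 61 were higher on T cells and 0 lower at an adjusted p below 0.05, against a background of 4.98% of all genes tested called higher. Most of the 64 passed the filter through their T cell libraries, so the count is no support for a difference. Without the filter, 175 of the 211 members listed in all tables were called higher and 0 lower, against 3.17% of all 35105 genes. Their median difference was 0.49 on the log2(TPM + 1) scale, and that of all genes was -0.10.

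By kind, the unfiltered comparison called 43 of 48 Traj, 96 of 106 Trav, 11 of 13 Trbj and 20 of 22 Trbv segments higher on T cells, besides Trac, Trbc1 and Trbc2. Of the Trg segments it called 1 of 5 V, 0 of 3 J and 0 of 3 C segments, and of the Trd segments 1 of 5 V, 0 of 2 J and Trdc not. The alpha and beta loci thus made up all but 2 of the calls.

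By the rule for named genes, the 10 called members with the largest differences were 8 Traj segments, Trbj2-7 and Trac. Where the other types are at 0 a difference restates the T cell TPM, so this order does not rank one kind over another. Traj21 stood at 31.7, 93.0 and 62.2 TPM on T cells and was listed at 0 everywhere else. Traj24 was at 18.2, 76.5 and 55.8 TPM and Traj22 at 23.7, 63.8 and 33.5 TPM, and outside T cells each had a value in B cell replicate 1 alone, of 0.693 and 0.768 TPM. Their differences on the log2(TPM + 1) scale were 5.39 ± 0.29 and 5.18 ± 0.22 (SE). These 3 segments were higher in all 3 T cell libraries than in any other library.

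Traj7 was at 15.9, 50.7 and 35.4 TPM on T cells and Traj13 at 13.5, 30.5 and 13.3 TPM. Traj5 was at 20.4, 10.4 and 17.4 TPM and Traj15 at 4.75, 35.6 and 16.7 TPM. All 4 were listed at 0 in the 12 other libraries, so no fold change can be given. Traj5 departed from the common order, since its lowest T cell value was in replicate 2, the library with the highest summed level. Traj3 was at 9.41, 48.3 and 37.8 TPM on T cells and outside them was above 0 only in HSPC replicates 1 and 2, at 0.600 and 0.831 TPM.

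The leading beta J segment on T cells was Trbj2-7, at 14.7, 45.3 and 21.1 TPM and listed at 0 elsewhere. Trbj2-5 was at 13.4, 26.9 and 15.4 TPM on T cells and outside them was above 0 in NK cell replicate 1 alone, at 9.35 TPM. Trbv16 led the beta V segments at 4.06, 8.81 and 7.20 TPM, and Trav12n-3 led the alpha V segments at 1.54, 3.63 and 3.14 TPM. Outside T cells Trbv16 was above 0 in B cell replicate 1 alone, at 0.161 TPM.

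Some alpha V segments cannot be told apart. The mouse Tra locus carries duplicated blocks, and 30 members formed 15 pairs with identical values in every library, such as Trav12d-1 with Trav12n-1. Kallisto divides reads that fit near-identical transcripts, so the level of a single copy within such a pair is uncertain. Counting each pair once left the T cell mean at 779 TPM.

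**Figure D2:**
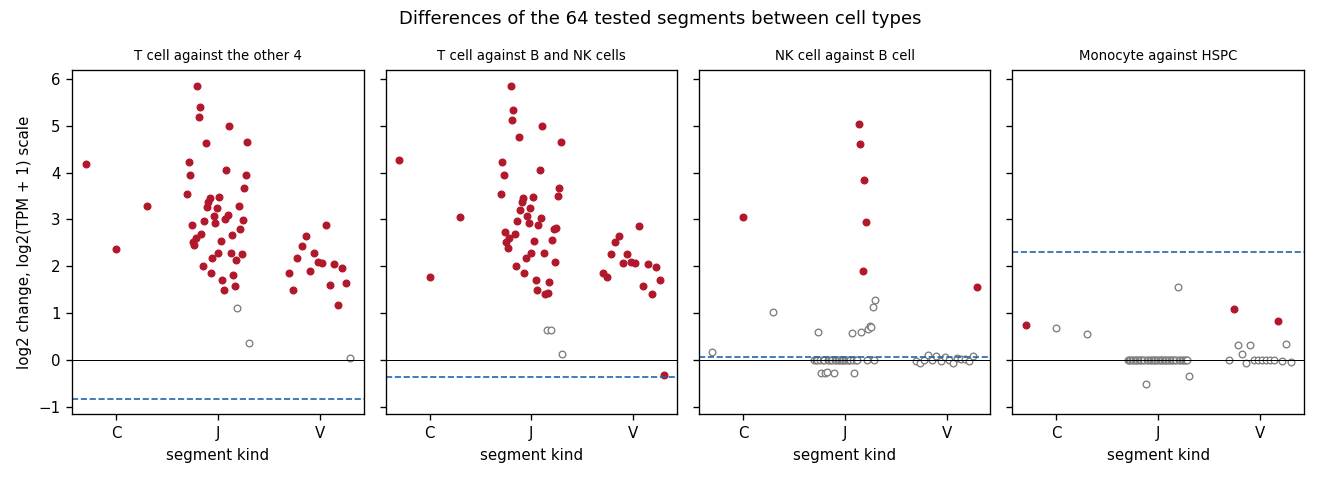
Differences on the log2(TPM + 1) scale (vertical axis) of the 64 tested members by segment kind in 4 comparisons, filled where the adjusted p was below 0.05 and open elsewhere. The dashed line is the median of all 13119 genes tested, at -0.83, -0.37, 0.06 and 2.31 from left to right, and the height of a point listed at 0 in a group depends on the pseudocount of 1.

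The level of the Traj segments on T cells changed along their array. The 51 segments lie 2.62 to 64.3 kb before Trac, and they were split by order into groups of 17. The T cell table does not list 3 of them, 1 in the nearest and 2 in the farthest group, and these were counted at 0. The 17 nearest to Trac, from Traj2 to Traj21, summed to 130, 386 and 265 TPM in the 3 T cell libraries. The middle 17, from Traj22 to Traj39, summed to 81.8, 336 and 175 TPM. The farthest 17, from Traj40 to Traj59, summed to 19.9, 51.4 and 49.9 TPM, below both other groups in each library.

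Of the nearest and the middle group 15 of 17 segments each had values in all 3 T cell libraries, against 6 of 17 in the farthest group. Across the 51 segments, Spearman's correlation between distance from Trac and mean TPM was -0.61, and it was -0.55, -0.58 and -0.55 in the single libraries. The correlation of mean TPM with segment length was -0.26 and with GC content 0.12. These are descriptions over segments that share the same libraries and are not independent replicates. Levels still jumped between neighbors, with Traj20 at 0.974, 17.7 and 20.7 TPM next to Traj21 at 31.7, 93.0 and 62.2 TPM.

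**Figure D3:**
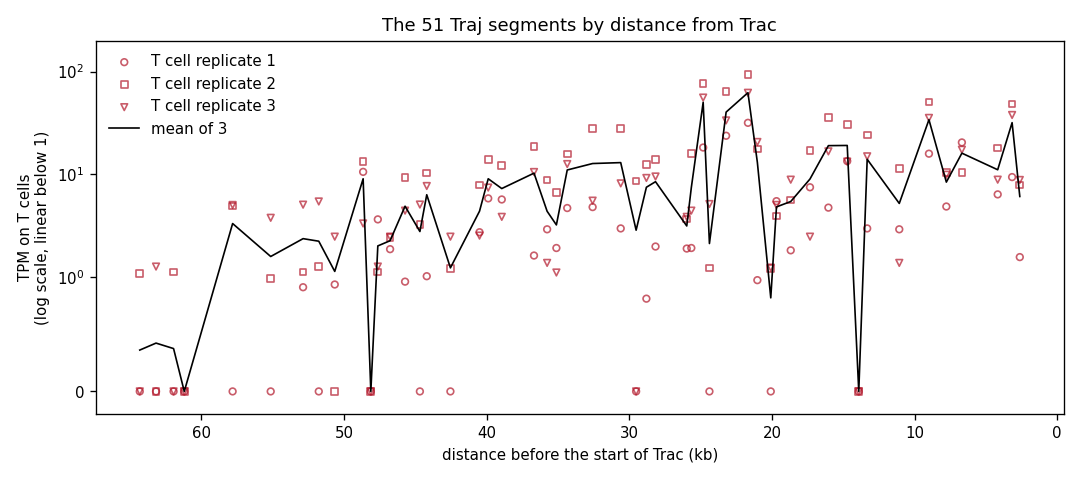
TPM of the 51 Traj segments on T cells (vertical axis, logarithmic above 1 and linear below) against their distance before Trac in kb, with 1 symbol per library and a line at the mean of 3. The farthest 17 segments average 40.4 TPM in sum against 260.4 TPM for the nearest 17, and the 3 segments at 0 in all libraries are those the T cell table does not list.

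Among the spleen cells alone, T cells were compared with the mean of B and NK cells, which share tissue and instrument. Of the 64 members 60 were higher on T cells, against 3.57% of all genes tested. The limit set by the filter holds here too. Without it 156 of the 211 members were called higher, against 687 of all 35105 genes. The 5 largest differences were those of Traj21, Traj24, Traj22, Traj7 and Traj3. Trac was higher by 4.27 ± 0.24, Trbc2 by 3.04 ± 0.36 and Trbc1 by 1.77 ± 0.36 on the log2(TPM + 1) scale (SE), with adjusted p-values of 3.56e-08, 3.03e-05 and 0.00209 in limma. This comparison shares the T cell, B cell and NK cell libraries with the one above, so both sets of calls rest on the same samples.

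A member was also lower on T cells in this comparison, where 41.6% of all genes tested were called lower. It was Trdv2-2, a V segment of the delta locus. Trdv2-2 was at 0.245, 0.422 and 0.444 TPM on T cells, at 2.49, 1.22 and 2.31 TPM on NK cells and at 0 on B cells. Its difference was -0.33 ± 0.11 (SE) with an adjusted p of 0.0317 in limma, against a median of -0.37 over all genes, and without the filter it did not pass (0.109). No member was called lower with a pseudocount of 0.1, after quantile normalization or rescaling, on transcripts, or without B cell replicate 1 or 2, T cell replicate 1 or 3, or any 1 NK cell or monocyte library. Trbj1-2, Trbj1-5 and Trgj1 did not pass the test, with differences of 0.65, 0.64 and 0.12.

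NK cells carried Trbj1 segments and Trbc1 at levels that overlapped those of T cells, and little of Trbj2. Between libraries of the same number, a pairing that the labels do not give, the Trbj1 sum was always higher on NK cells. Trbc1 was always higher on T cells within the same pairs. In the comparison with B cells, 7 of the 64 members were higher on NK cells, against 10.8% of all genes tested, and 0 were lower. The share of members was thus close to the background, and the 7 were Trbj1-1, Trbj1-2, Trbj1-4, Trbj1-5, Trbj1-6, Trbc1 and Trdv2-2. Trdv2-2 exceeded 1 TPM in the NK cell libraries alone and so passed the filter through them. Trbj1-4 fell outside the rule for named genes and was added after its values were seen. It was at 0, 12.2 and 2.92 TPM on NK cells and 0 on B cells, with an adjusted p of 0.0439 in limma. The 5 J segments belong to the cluster that precedes Trbc1. Without the filter 2 of the 13 Trbj segments and 7 of the 211 members were called, against 1423 of all 35105 genes called higher. Without any 1 B cell library 4 of the 64 members were called, against 942 to 1221 of the 13027 to 13048 genes tested.

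Trbj1-1 was at 15.7, 61.9 and 32.3 TPM on NK cells and at 20.6, 19.9 and 6.74 TPM on T cells. Trbj1-2 was at 15.7, 25.5 and 32.3 TPM on NK cells and at 1.47, 19.9 and 8.09 TPM on T cells. Neither had a value above 0 on B cells, and they passed with adjusted p-values of 1.50e-06 and 2.59e-05 in limma. The segments are both 48 nt long and had equal values in T cell replicate 2 and in NK cell replicates 1 and 3, and whether reads were shared between them was not tested.

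Trbj1-5 was at 8.75, 41.9 and 6.21 TPM on NK cells, and Trbj1-6 at 0, 30.6 and 13.2 TPM. Their adjusted p-values against B cells were 0.037 and 0.0274 in limma. Trbj1-5 lost its call without any 1 of the 3 B cell libraries (adjusted p of 0.0826 to 0.0954) and without NK cell replicate 1 or 2 (0.0501 and 0.147), without the filter on low values (0.121) and on single transcripts (0.0619). Its difference on the log2(TPM + 1) scale was 3.85 ± 1.19 (SE). That was the same in the fits without a B cell library, without the filter and on single transcripts. It was 4.14 without NK cell replicate 1 and 3.07 without NK cell replicate 2. Trbj1-6 lost its call without any 1 B cell library (adjusted p of 0.0651 to 0.0763) and without the filter (0.096). The call was also lost without NK cell replicate 2 or 3 (0.12 and 0.106). Its difference of 2.94 was the same without a B cell library or the filter, and was 1.91 and 2.49 without those NK cell replicates. Trbc1 was at most 0.156 TPM on B cells, and NK cells were higher by 3.04 ± 0.41 on the log2(TPM + 1) scale (SE, adjusted p of 1.28e-04 in limma). Trbc2 differed by 1.03 ± 0.41 and did not pass the test (adjusted p of 0.109), although it did after quantile normalization (0.00537) and without NK cell replicate 1 (0.034) or T cell replicate 1 (0.0386).

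The balance of the beta clusters differed between NK cells and T cells in every library. The 7 Trbj1 segments summed to 40.1, 172 and 93.8 TPM on NK cells and the 6 Trbj2 segments to 9.35, 3.46 and 6.22 TPM, a Trbj1 share of 81.1%, 98.0% and 93.8%. On T cells the Trbj1 share was 44.0%, 44.7% and 36.7%. Trbc1 showed the same division, with 86.8%, 82.3% and 84.5% of the Trbc TPM on NK cells and 40.2%, 40.8% and 42.0% on T cells. Neither share overlapped between the cell types. This contrast was noticed in the data and was not tested.

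**Figure D4:**
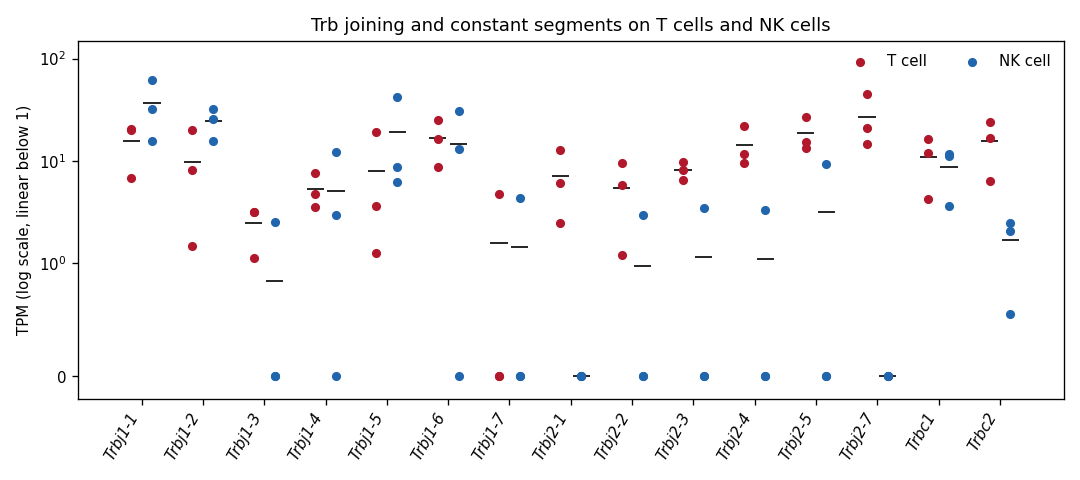
TPM of the 13 Trbj segments and of Trbc1 and Trbc2 (vertical axis, logarithmic above 1 and linear below) on T cells and NK cells, with 1 point per library and a bar at the mean of 3. Trbj1-1, Trbj1-2 and Trbj1-5 are above 0 in all libraries of both types, while Trbj2-1 and Trbj2-7 are at 0 in all 3 NK cell libraries.

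Beta V segments were low on NK cells. The 22 Trbv segments summed to 0.126, 0.243 and 0.854 TPM on NK cells and to 30.2, 81.0 and 58.3 TPM on T cells. The alpha V and J segments summed to at most 1.11 and 4.08 TPM on NK cells, led by Trav13-5 at 0.103, 0.0741 and 0.405 TPM and by Traj16 at 2.40 TPM in replicate 1 alone. Trbv12-2 led the beta V segments there, at 0, 0.0846 and 0.277 TPM. The 16 T cell markers summed to 10.9 to 25.4 TPM on NK cells, with 10 of 16 above 0 in all 3 libraries and none at 0 in all. Cd3e, Cd3g and Cd8b1 reached 0.081, 0.294 and 0.036 TPM there, against at least 1.75 TPM on T cells. Other T cell genes overlapped between the types, such as Lck at 2.53, 8.01 and 6.57 TPM on NK cells and 3.04, 9.37 and 6.94 TPM on T cells, and Cd247 at 1.33, 3.77 and 3.05 against 2.62, 8.43 and 4.78 TPM. Their part in the segment levels was not tested. In such bulk libraries fewer cells of a type and less RNA per cell cannot be told apart.

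The delta segments were higher in every NK cell library than in any T cell library. They summed to 3.21, 21.2 and 17.6 TPM on NK cells and to 0.344, 0.713 and 0.697 TPM on T cells. Trdv4 was at 0.292, 3.65 and 2.08 TPM and Trdj1 at 0, 15.2 and 5.83 TPM on NK cells, and both were listed at 0 on T cells and B cells. Trdj2 was at 6.32 TPM in NK cell replicate 3 alone. Without the filter on low values, NK cells were higher than B cells for Trdc (adjusted p of 0.00892), Trdv4 (0.023), Trdv2-2 (3.60e-05) and Trgc1 (0.00143) in limma, while Trdj1 (0.0924), Trdj2 (0.508) and Trgc4 (0.0656) did not pass.

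Gamma segments overlapped between NK cells and T cells, at 0.476 to 5.20 and 0.925 to 5.91 TPM in sum. Trgj1 was at 0, 0 and 3.86 TPM on T cells and at 0, 3.80 and 2.02 TPM on NK cells, so it was above 0 in 3 of these 6 libraries. The leading gamma V segment was Trgv2 on T cells, at 0.161, 0.281 and 0.327 TPM, and Trgv5 on NK cells, at 0.249 TPM in replicate 2 alone. The 5 markers listed for gamma delta and innate-like T cells summed to 1.79 to 2.03 TPM on NK cells and 0.276 to 0.483 TPM on T cells, and all 5 were above 0 in all 3 libraries of both. Their part in the delta and gamma values was not tested, and the list holds Blk, which is also a B cell gene.

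On B cells and HSPCs segment values were sparse. The J segments of B cells were above 0 in replicates 1 and 2 alone, with 7 Traj segments of at most 0.856 TPM and no Trbj segment. Trbc2 had the highest mean of the constant genes on B cells, at 0.341, 0.319 and 0.090 TPM, and in replicate 3 Trac was higher at 0.097 TPM. Trav7n-4 and Trdv5 led the alpha and delta V segments there, with 0.0995 and 0.0458 TPM in 1 library each. On HSPCs Traj3 was the only alpha J segment above 0. Trbj1-5 was above 0 in replicate 1 alone, at 0.633 TPM, and Trgj1 in replicate 2 alone, at 1.05 TPM. The 4 Trbv segments with a value in all 3 libraries, led by Trbv13-2, reached at most 0.373 TPM.

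Monocytes were compared with HSPCs, the other cells from bone marrow. Of the 64 members, 3 were called higher on monocytes, against 91.4% of all genes tested, and the median of all genes was itself shifted by 2.31 on the log2(TPM + 1) scale. Trbv1 was at 0.951, 0.947 and 1.75 TPM on monocytes and 0.020 to 0.053 TPM on HSPCs. Trbv3 was at 0.862, 0.858 and 0.793 TPM on monocytes and 0.018 to 0.055 TPM on HSPCs. Their differences were 1.08 ± 0.24 and 0.83 ± 0.13 (SE), with adjusted p-values of 5.75e-04 and 1.78e-05 in limma, so both lay under the shift of all genes.

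Trac differed by 0.74 ± 0.28 (adjusted p of 0.0211 in limma) between monocytes and HSPCs. Its call was lost without HSPC replicate 1 (0.053) and without monocyte replicate 1 or 2 (0.0624 and 0.0627), without the filter (0.0513) and on single transcripts (0.0663), with differences of 0.71, 0.65, 0.65, 0.74 and 0.585 in that order. The 16 T cell markers summed to 7.67 to 9.65 TPM on monocytes and 0.324 to 0.560 TPM on HSPCs, with 8 and 12 of 16 above 0 in all 3 libraries. Of the 6 tested genes for CD3 chains and coreceptors 1 was called higher on monocytes, against 91.4% of all genes tested. It was Cd3d (adjusted p of 0.045 in limma), at 0.223, 0.222 and 4.08 TPM. Its difference of 0.95 lay under the median of 2.31 over all genes. Cd3e and Cd247 did not pass (adjusted p of 0.0947 and 0.442 in limma), and Cd3g was at 0 in all 3 monocyte libraries. The 5 neutrophil markers summed to 1384 to 1490 TPM on monocytes and 10.97 to 53.5 TPM on HSPCs. The part of these cells in the segment values was not tested. After quantile normalization the differences of the 3 called members turned to the other sign, at -0.005 for Trbv1, -0.072 for Trbv3 and -0.051 for Trac, and none of the 3 passed, while 2 of the 64 members were then called lower on monocytes. The lowest V value above 0 in the monocyte libraries was 0.793 to 0.862 TPM, and Trbv3 stood at that value in each of them. Trbj1-5 had 40.2 TPM in monocyte replicate 2 and 0 in the others.

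The other parts of the receptor were followed with lists. Of the 7 genes for the CD3 chains and coreceptors, 6 were tested, and 6 were higher on T cells than on the other 4 types, against 4.98% of all genes tested. Cd3g, Cd8a and Cd8b1 exceeded 1 TPM in T cell libraries alone. Outside T cells Cd3d and Cd3e did so only in monocyte replicate 3, at 4.08 and 1.38 TPM. All of these genes passed the filter through their T cell libraries, so the count is no support for a difference. Cd4, low everywhere, did not pass it. Cd8b1 differed by 3.89 ± 0.20 and Cd3e, a CD3 chain, by 3.20 ± 0.23 on the log2(TPM + 1) scale (SE). On NK cells 1 of the 6 exceeded B cells, against 10.8% of all genes tested, namely Cd247, the zeta chain that NK cell receptors also use, by 1.73 ± 0.30. The list summed to 23.0, 66.2 and 45.6 TPM on T cells and to 2.17, 4.73 and 4.35 TPM on NK cells.

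Of the 10 signaling genes, all tested, 6 were higher on T cells than on the other 4 types and 2 lower, against 4.98% and 83.4% of all genes tested. Themis, 1 of the 6, exceeded 1 TPM in T cell libraries alone and so passed the filter through them. Lat, an adaptor downstream of the receptor, rose by 2.07 ± 0.18, while Vav1 fell by 1.43 ± 0.22 and Nck1 fell by 0.73 ± 0.13, next to a median of -0.83 over all genes. NK cells exceeded B cells for 6 of the 10, against 10.8% of all genes tested, with Zap70 at 1.48 ± 0.26 and Lck at 1.76 ± 0.35. None of the 4 genes of the pre-T receptor and of recombination (Ptcra, Rag1, Rag2 and Dntt) passed the filter, and their sum was at most 0.081 TPM on T cells and 2.16 TPM on monocytes.

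Among 13055 genes that are no members, those whose log2(TPM + 1) over the 15 libraries was most like that of the summed members were Tcf7, a transcription factor of T cells (Pearson's r of 0.963), the lncRNA Gm2682 (0.959), Cd247 (0.953), Skap1, an adaptor of T cells (0.952), and Slc12a7 (0.942). Tcf7 was at 6.96, 21.6 and 12.3 TPM on T cells and 2.43, 5.96 and 5.44 TPM on NK cells. The points share libraries and cell types, so these values describe likeness in this set of samples.

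In PBMCs all 226 members were matched by gene identifier, and 161 had at least 1 expected count. The libraries held 4686426 to 9055797 counts, of which a single gene, CT010467.1, took 50.5 to 57.0%. Members held 521 to 1027 counts per library. Scaled by TMM-adjusted totals, they held 106, 108 and 109 CPM (counts scaled to a fixed total) under ct, 112, 108 and 109 under WT and 114, 107 and 106 under Y. The groups overlapped.

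The kinds of segment that RSEM could see in PBMCs differed from those on the surface. The 8 C segments held 5175.8 of the 7349.2 counts of the members, the 144 V segments 2129.4 and the 70 J segments 44. RSEM's effective length was at most 4.15 nt for J segments and 0 nt for D segments, so J segments could hardly be counted, and the J levels on the surface cannot be set against PBMCs. Of the 144 V segments 123 had a count.

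Trbc2 was at 13.1 to 19.1 TPM, Trbc1 at 7.60 to 9.66 TPM and Trac at 6.97 to 9.80 TPM over the 9 PBMC libraries, so Trbc2 lay above both. Trdc had 0.46 to 0.90 TPM, and the 4 Trgc genes together had 1 to 7 counts per library. Trbc1 took 127.7, 127.2 and 138.7 counts under ct, 183.7, 140.9 and 156.5 under WT and 83.5, 129.2 and 151.8 under Y.

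**Figure D5:**
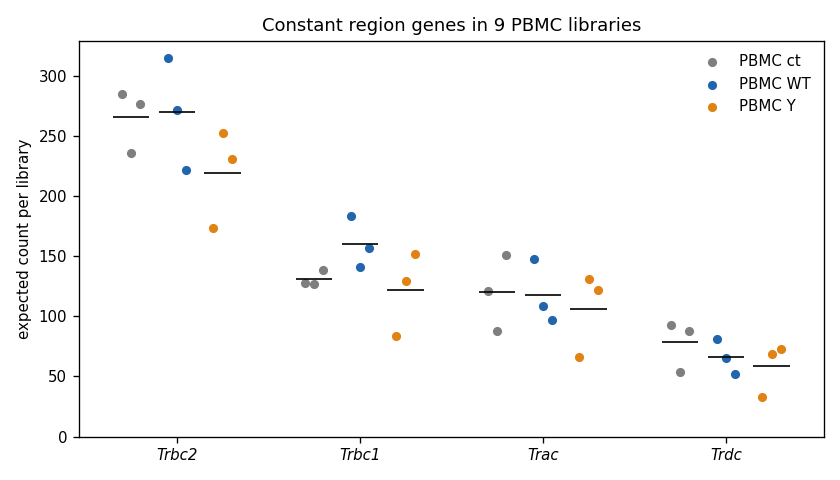
Expected counts (vertical axis) of 4 constant region genes in the 9 PBMC libraries, with 1 point per library, colors for the treatment labels ct, WT and Y, and a bar at the mean of 3. Counts are not scaled by library size, and the groups overlap except ct with WT for Trbc1, at 127.2 to 138.7 and 140.9 to 183.7 counts. That separation holds for unscaled counts only. The TMM-adjusted totals are 6673903 for ct replicate 2, with 127.2 counts, and 7894944 for WT replicate 2, with 140.9 counts. Scaled by them, ct replicate 2 is the higher, so these groups overlap too.

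The PBMC groups were compared with edgeR on 11635 genes, of which 10 were members, 4 C and 6 Trbv segments. For WT against ct 0 of the 10 were called, against 2.36% of all genes, and 1 had an unadjusted p below 0.05. For Y against ct 0 were called, against 0.705%, and 0 had an unadjusted p below 0.05. For Y against WT 0 were called, against 1.25%, and 2 had an unadjusted p below 0.05. DESeq2 called 0 members in each. These comparisons share libraries between them.

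The smallest p in WT against ct was that of Trbc1, with a log2 change of 0.25 ± 0.11 (SE) and an adjusted p of 0.406 in edgeR. Trbv13-2, Trdc, Trbv1 and Trbv19 followed, with log2 changes of 0.65, -0.28, 0.45 and -0.22 and adjusted p-values of 0.468 to 0.897. In Y against WT the smallest p belonged to Trbv1, with -0.86 ± 0.33 (adjusted p of 0.302), and Trbv5, with 0.94 ± 0.44 (0.416). Their counts were 22, 17 and 12 under WT and 5, 11 and 7 under Y for Trbv1, and 7.53, 4.59 and 7 under WT and 7.73, 8 and 16 under Y for Trbv5.

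In Y against ct the smallest p was that of Trbv5, with 0.77 ± 0.43 (adjusted p of 0.687), followed by Trdc, Trbv1, Trbv13-2 and Trbc1 with adjusted p-values of 0.805 to 0.869 in edgeR. Trac changed by -0.06 ± 0.12 in WT against ct, 0.06 ± 0.13 in Y against ct and 0.12 ± 0.13 in Y against WT. Trbc2 changed by -0.02 ± 0.09, -0.03 ± 0.10 and -0.01 ± 0.10.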

How the data were processed

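Surface RNA values are TPM per transcript as deposited by the authors, in 1 table per cell type. The submitters' processing notes name cutadapt, STAR, featureCounts and kallisto with mm10, and the annotation release is not given in the sources used here. PBMC values are RSEM expected counts deposited by the authors, whose notes add Trim Galore and RSEM. The PBMC files also hold deposited TPM, used for levels only.

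Transcript TPM was summed per gene by identifier without version, which kept 35105 genes in all 5 tables. In 17 rows a member gene's transcript carries another type, and these rows were kept in its sum. Earlier results of these data were known when the 226 members, the gene lists and the naming rule were chosen. The rule names C segments, the 10 largest positive and 5 largest negative called changes of T cells against the other 4 types, the 5 largest in each other surface comparison, the leading member of each locus and kind, the 5 smallest p per PBMC comparison and the 5 most similar genes.

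Surface comparisons used limma 3.58.1 with a mean-variance trend on log2(TPM + 1), all 15 libraries in 1 fit. PBMC comparisons used edgeR 4.0.16 quasi-likelihood tests on rounded expected counts with TMM and filterByExpr, and DESeq2 1.42.0 as an alternative. P-values were adjusted by Benjamini-Hochberg over all genes tested. The study's text calls the surface replicates biological, and the sources used here do not say whether they or the PBMC libraries came from separate animals, so p-values measure the spread between these libraries. Both tests were checked on simulated data. Coordinates and sequences are GENCODE M21, GRCm38. The surface tables follow another release, with 37 of their 149655 transcripts at the same version.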

Additional observations from a re-analysis of the deposited data

How the results depend on the processing

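Leaving out rRNA genes and 3 abundant miRNA-like genes and rescaling each library to the same total raised the mean member sums to 1969 TPM on T cells, 422 on NK cells, 10.5 on B cells, 18.3 on HSPCs and 40.5 on monocytes, since those genes held 49.4 to 91.0% of the TPM. The factors were 1.98 to 2.04 for monocytes and 7.63 to 11.1 for HSPCs, whose sums then overlapped. On T cells Tra then summed to 1402, Trb to 558, Trg to 7.28, Trd to 1.49, V to 233, J to 1608 and C to 128 TPM. On NK cells the same sums were 9.20, 361, 9.23, 42.5, 16.02, 368 and 37.5 TPM. Counting only rows typed as segments (chosen after seeing the data) or identical members once moved no sum by more than its SD. PBMC totals without the most abundant gene gave 230 CPM under ct, 231 under WT and 233 under Y.

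Calls against the other 4 types numbered 175 without a filter and 5 among genes above 50 TPM in 1 library, with 16 to 62 when 1 library was left out. For T cells against B and NK cells they were 156, 5 and 14 to 61, for NK against B cells 1 above 50 TPM and 3 to 8, and for monocytes against HSPCs 0 above 50 TPM, 5 with a pseudocount of 0.1 and 1 to 3. The low counts without a T cell library (16 of 19 members tested) follow from the filter, which then leaves 19 members. With the same 64 members tested (added after seeing the data), 61 were called against the other 4 types without each T cell library in turn. NK against B cells fell to 3 without NK cell replicate 2 and to 4 without NK cell replicate 3 or any B cell library. Over all genes, 1113 of 35105 were called higher against the other 4 types without a filter, and 687 against B and NK cells. Above 50 TPM these were 299 and 238 of 1348, with 351 for NK against B cells and 1230 for monocytes against HSPCs. With 1 library left out they were, in the same order, 503 to 669, 307 to 550, 928 to 2100 and 8034 to 11982 of 9178 to 13114. For monocytes against HSPCs 11939 of 13119 were higher with a pseudocount of 0.1.

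After quantile normalization the monocyte against HSPC differences reversed, at -0.005 for Trbv1, -0.072 for Trbv3, -0.051 for Trac, -0.195 for Trbc1 and -0.125 for Trbc2, and the median of all genes fell from 2.31 to -0.01. The cause was not tested. Trbc1 and Trbc2 had no call with or without the filter. Without it their differences were 0.67 and 0.56 (adjusted p of 0.234 and 0.323 in limma). With a pseudocount of 0.1 Trbc1 was called (adjusted p of 0.00165 in limma). Its difference of 2.21 then lay under the median of 3.45 over all genes. In PBMCs, tests without a filter called 1 of 159 members, Trav9n-4 (named after its values were seen), higher in Y against ct and in Y against WT. Of all 29571 genes, 133 and 132 were called higher in these comparisons and 124 and 234 lower. Trav9n-4 had 5.4 and 9 counts in Y replicates 2 and 3 and 0 in the other 7 libraries. Changes whose sign turned there when 1 library was left out all lacked a call. In WT against ct they ranged from -0.509 to 0.066 for Trbv19, -0.043 to 0.029 for Trbc2 and -0.146 to 0.089 for Trac. In Y against ct they ranged from -0.115 to 0.053 for Trbc2 and -0.027 to 0.206 for Trac, and in Y against WT from -0.089 to 0.071 for Trbc2.

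With the replicate block the counts stayed at 61, 61, 7 and 3 on the surface and 0 in each PBMC comparison. Same-numbered libraries correlated at -0.26 to 0.47. The pairs of T with NK cells were all over 0.1, at 0.47, 0.21 and 0.311, and 6 of these 6 libraries correlated best with their own number, a hint of pairing between those types that the labels do not give. Over all groups this held for 9 of 15 surface and 2 of 9 PBMC libraries. T cells were not tested against NK cells alone.

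TPM keeps no depth, so J values cannot be given counting intervals. In PBMCs, 65 members had no count.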
